A study of Macaca mulatta with 12 samples.

Results

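Cytosolic ribosomal proteins are the protein building blocks of the ribosomes that work outside mitochondria. Their genes were taken as every Ensembl macaque identifier of the transcript count table with a ribosomal protein symbol (RPL or RPS followed by a number, RPSA, or RPLP0, RPLP1 and RPLP2), with the ribosomal S6 kinases left out. The rule found 69 identifiers of the 23993 in the table, and 143 of the 40611 transcripts. They carry 65 different symbols, 31 identifiers for the small subunit and 38 for the large one.

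The counts come from liver biopsies of 6 male rhesus monkeys (Macaca mulatta) about 4.6 years old, all of which drank ethanol on the same schedule. Each animal gave a baseline biopsy and a second biopsy after an induction of 90 days, in which 0.5, 1 and 1.5 g ethanol per kg per day were drunk for 30 days each. The animals then chose freely how much to drink for 12 months and were named by that later intake, 1.5 g per kg per day in the 3 light drinkers (LD) and 4.0 in the 3 very heavy drinkers (VHD). Class and time make 4 groups of 3 libraries each, and LD and VHD animals had drunk the same amounts when both biopsies were taken. No group stayed without ethanol over the same 90 days, so time, repeated biopsy and ethanol cannot be told apart. The libraries are numbered by the animal in the sample titles.

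A ribosome joins a small subunit, which reads the messenger RNA, to a large subunit, which forms the peptide bond, and each carries a fixed set of proteins on a core of ribosomal RNA. The genes of these proteins lie scattered over the chromosomes, yet their messengers share a short pyrimidine tract at the very start, the 5′ TOP motif, through which the mTOR kinase and the LARP1 protein set their translation and stability together. The liver makes most plasma proteins and is rich in ribosomes, and single ribosomal proteins that are not built into a subunit can bind MDM2 and so stabilise p53.

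Of 77 symbols of the core set, 59 were matched, 24 of 31 for the small subunit and 35 of 46 for the large one. RPL11, RPL14, RPL21, RPL23, RPL29, RPL34, RPL35A, RPL36A, RPL37, RPL41, RPLP0, RPS6, RPS9, RPS10, RPS15, RPS18, RPS20 and RPS26 matched no identifier and are not analysed here. A further 6 of 9 paralogs were found: RPL3L, RPL7L1, RPL22L1, RPS4Y1, RPS4Y2 and RPS27L. The symbols RPS2, RPS24, RPS27A and RPSA each stand on a second identifier, RPS2 on chromosome 6, RPS24 on chromosome X, RPS27A on chromosome 8 and RPSA on chromosome 12, which are named with that chromosome below. All 69 identifiers passed the filter on low counts.

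On the Mmul_8.0.1 build, the second RPSA identifier spans 888 bases (chromosome 12, 90691403 to 90692290), against 4958 bases for RPSA (chromosome 2, 103292302 to 103297259). The second RPS24 identifier spans 425 bases (chromosome X, 74696661 to 74697085), against 21536 bases for RPS24 (chromosome 9, 54276845 to 54298380). Including these, 9 identifiers span under 1500 bases. Ribosomal protein genes have many processed copies in primate genomes, and how the counting divided reads between near-identical sequences is not given in the sources used here, so the value of any single identifier is uncertain to that extent.

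Library totals ranged from 5970057 to 25060758 counts. Levels are in CPM, counts scaled to depth with the TMM factors of edgeR. The tissue label was checked on hepatocyte markers: 9 of 10 were measured and summed to between 133445 and 251654 CPM, with albumin alone at 7.60 to 15.3% of counts, while cholangiocyte, endothelial, macrophage, stellate, neutrophil, erythroid, T and B cell lists each summed to at most 233 CPM. In all genes other than the ribosomal ones, 2 libraries from different animals, VHD baseline 3 and, at the later time, VHD post-induction 2, stood apart on principal component 2. Their scores were -92.5 and -82.2, against -26.5 to 39.8 in the other 10 libraries. The labels give no batch for these 2 VHD libraries. Some results that rest on them are given with and without them, and the others, such as group means and ranges of single genes, over all 12 libraries.

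The summed level of the 69 genes varied 3.03-fold between libraries (2.36-fold without the 2 VHD libraries that stood apart), and it did not follow the groups. It was 13826, 14696 and 13198 CPM in LD baseline 1 to 3, and 19732, 9587 and 8355 CPM in LD post-induction 1 to 3. It was 18254, 8984 and 16612 CPM in VHD baseline 1 to 3, and 13076, 25346 and 10168 CPM in VHD post-induction 1 to 3. Only the LD baseline livers lay close together, and every other group held both high and low libraries that overlapped with those of all groups. The group means were 13907 ± 752, 12558 ± 6243, 14617 ± 4946 and 16197 ± 8056 CPM (SD, n = 3 each), so the means differed by less than the SD of 3 of the 4 groups. As a share of all counts, the genes took 0.828 to 2.56%.

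**Figure D1:**
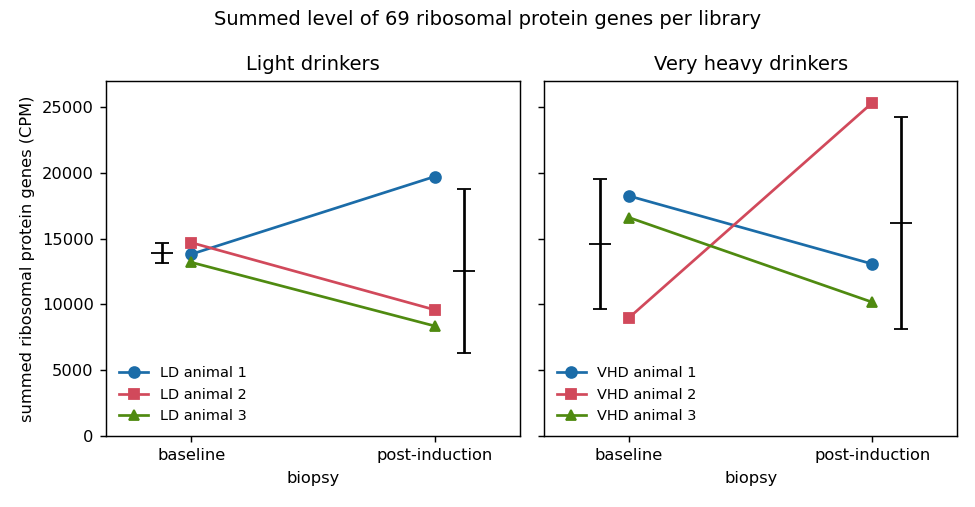
Summed level of the 69 ribosomal protein genes (CPM, y axis) at baseline and post-induction (x axis), with 1 line per animal, LD on the left and VHD on the right, and the mean and SD of each group beside the points. LD animal 1 and VHD animal 2 rose from 13826 to 19732 and from 8984 to 25346 CPM, while the lines of the other 4 animals slope down.

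Within an animal, most ribosomal protein genes moved the same way between the biopsies (52 to 65 of 69), but the direction differed between animals. In LD animal 1, 65 of 69 genes were higher post-induction, with a median log2 difference of 0.50. In VHD animal 2, 61 were higher with a median of 1.16, and the summed level was 2.82 times that at baseline. In the other animals most were lower: 62 of 69 in LD animal 2 (median -0.76), 64 in LD animal 3 (-0.85), 64 in VHD animal 1 (-0.44) and 52 in VHD animal 3 (-0.46). Each class thus held 1 animal with a higher and 2 with a lower median. The values of VHD animals 2 and 3 rest on the 2 libraries that stood apart, VHD animal 2 on its post-induction and VHD animal 3 on its baseline one, so without them the classes have 3 LD animals and 1 VHD animal with both biopsies. The median of all other tested genes stayed between -0.10 and 0.08 in the 6 animals, a range that the TMM scaling itself keeps small. In bulk tissue, fewer cells of a type and less RNA per cell cannot be told apart.

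Counted over genes, 52 of the 69 (75.4%) were higher post-induction in exactly 2 of the 6 animals, against 22.7% of all tested genes. Over the 4 animals that do not rest on the libraries that stood apart, 60 (87.0%) were higher in exactly 1, against 25.7% of all genes. None was higher in all 6 animals, where 2.67% of all genes were, and none was lower in all 6, where 3.74% of all genes were. RPL3L, the paralog of RPL3 known from striated muscle, was higher in 5 animals, and RPL31 and RPS4Y2 were in 4.

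Across libraries the genes rose and fell largely as a block. The first principal component of their log2 CPM held 71.2% of their variance and the second 20.8%, together 92.1%, against 51.8% for the first 2 components of all other genes. Without the 2 VHD libraries that stood apart, the first component of the ribosomal genes held 88.4%, against 41.3% for the other genes. This alternative was chosen after seeing the data, and far fewer genes enter the ribosomal components than the others, so the shares are descriptions.

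The number of ribosomal genes above their own mean over the 12 libraries shows the same pattern. It was 62 of 69 in LD post-induction 1, 61 in VHD baseline 1 and 55 in VHD post-induction 2. It was 7 in LD post-induction 2, 3 in LD post-induction 3, 4 in VHD baseline 2 and 7 in VHD post-induction 3. The other 5 libraries had 37 to 50. In each library, between 47.3 and 55.5% of all other genes were above their own mean, a share that the TMM scaling itself keeps narrow. The first principal component of the other genes held 31.2% of their variance. It scored -79.2 to -44.9 in the libraries with 7 or fewer ribosomal genes above their mean, and -7.33 to 67.5 in the rest. The libraries lowest for the ribosomal genes were thus also the lowest on the main axis of the other genes.

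**Figure D2:**
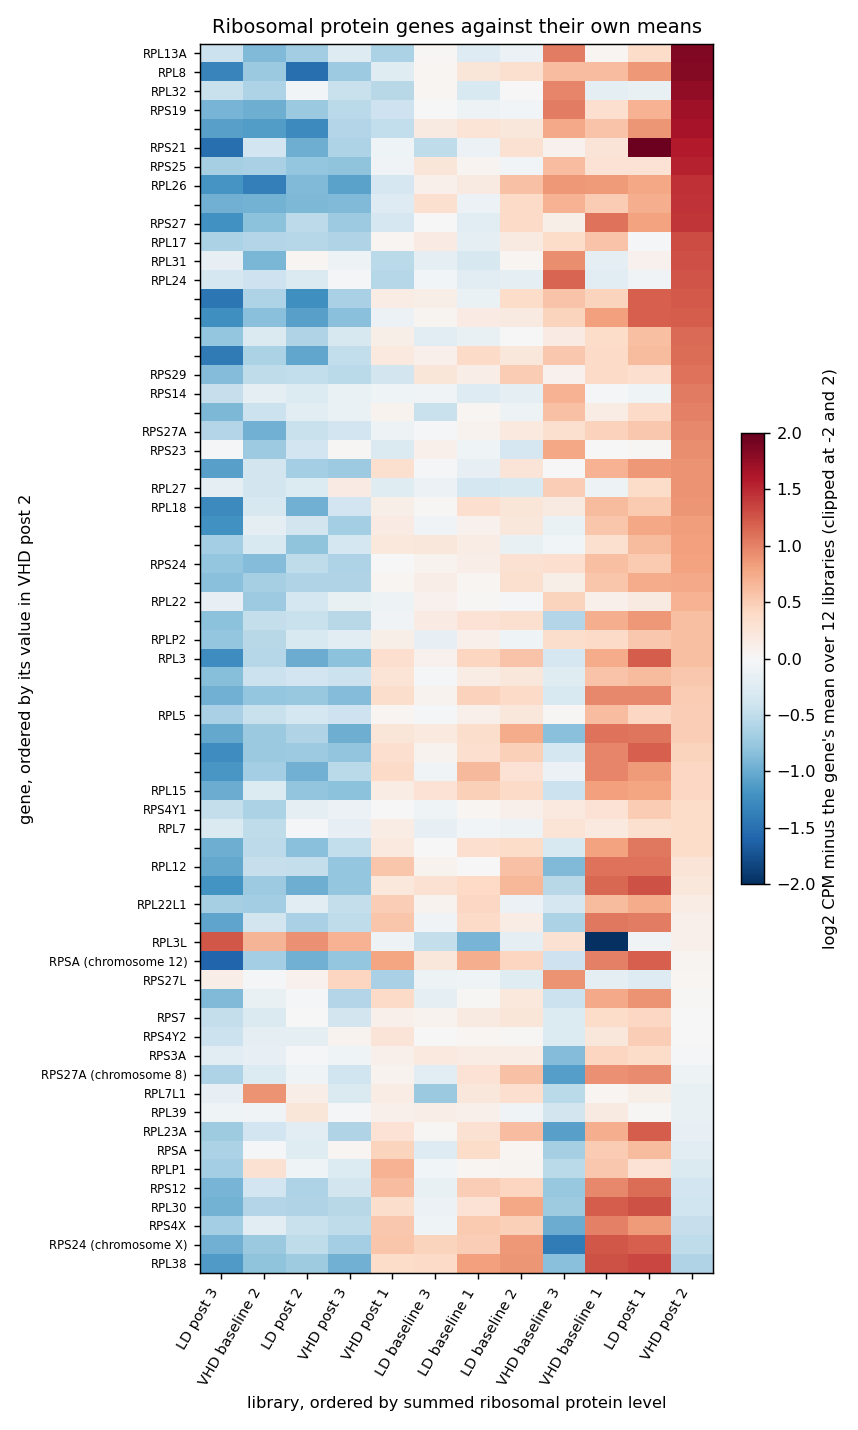
Each row is 1 of 65 ribosomal protein genes drawn (most of those named in the text are labelled) and each column 1 library, ordered by the summed level; colour is the gene's log2 CPM minus its own mean over the 12 libraries, clipped at -2 and 2. The 4 columns on the left are mostly blue (3 to 7 of all 69 genes above their mean), LD post-induction 1 is mostly red (62 genes), and the 2 VHD libraries that stood apart are red in the upper rows and blue or pale in the lowest rows.

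Both subunits took part. The 28 core identifiers of the small subunit summed to 3145 to 9120 CPM and the 35 of the large subunit to 4925 to 15783 CPM, and for both the lowest library was LD post-induction 3 and the highest VHD post-induction 2. The small-to-large ratio was taken over all 31 small and 38 large subunit identifiers, paralogs included. It was 0.686 to 0.717 in the 4 libraries with the lowest ribosomal level and 0.604 to 0.668 in the other 8. The large subunit therefore lay lower relative to the small one where the total was low, by a margin that is narrow beside the 3.03-fold range of the total.

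Among small subunit proteins, RPS19, known from Diamond-Blackfan anaemia, stood at 167, 174 and 180 CPM in LD baseline, 291, 107 and 94.4 in LD post-induction, 228, 91.8 and 366 in VHD baseline, and 134, 585 and 124 in VHD post-induction, each in the order of animals 1 to 3. LD baseline livers lay within 13 CPM of each other, whereas VHD post-induction 2 exceeded the other libraries of its group more than 4-fold. RPS27A, which encodes ubiquitin joined to a ribosomal protein and took the highest counts of the small subunit, was also highest in VHD post-induction 2 and lowest in VHD baseline 2, with 702, 766 and 650 CPM in LD baseline, 974, 492 and 445 in LD post-induction, 920, 343 and 834 in VHD baseline and 622, 1299 and 511 in VHD post-induction. RPS23, a protein of the decoding centre, ranged from 352 CPM in VHD baseline 2 to 1111 in VHD post-induction 2.

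RPS21, a small subunit protein, had the widest spread of all 69 genes (SD of log2 CPM 0.98 over 12 libraries). Its identifier is among the short ones, at 452 bases, and had 39 counts in LD post-induction 3. RPS21 was at 10.04, 13.5 and 7.62 CPM in LD baseline, 42.8, 5.43 and 3.74 in LD post-induction, 13.1, 8.31 and 11.6 in VHD baseline and 10.2, 32.7 and 7.04 in VHD post-induction. The same 2 animals as for the sum gave the high post-induction values. RPSA, also known as the laminin receptor, was among the less variable ones, between 91.0 CPM in VHD baseline 3 and 223 in LD post-induction 1. RPS7 was narrower still, between 292 and 544 CPM (SD 0.29).

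Of the large subunit, RPL13A, which can also leave the ribosome to silence messengers in interferon-treated cells, took the most counts. Its level was 568, 631 and 693 CPM in LD baseline, 881, 421 and 505 in LD post-induction, 700, 369 and 1379 in VHD baseline, and 438, 2461 and 570 in VHD post-induction. The groups overlapped, and VHD post-induction 2 was higher than every other library. RPL8, a protein near the peptidyl transferase centre, went from 151 CPM in LD post-induction 2 to 1546 in VHD post-induction 2, a 10.2-fold range. RPL26, which lies at the exit of the peptide tunnel, ranged from 85.5 CPM in VHD baseline 2 to 603 in VHD post-induction 2 (SD of log2 CPM 0.95).

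RPL3, another protein of the peptidyl transferase centre, stood at 252, 280 and 200 CPM in LD baseline, 434, 93.8 and 79.2 in LD post-induction, 315, 127 and 149 in VHD baseline, and 237, 284 and 106 in VHD post-induction. Here LD post-induction 1 was the highest library and VHD post-induction 2 only slightly above the LD baseline livers. At the other end, RPL39, a very small protein of the exit tunnel, kept between 295 and 446 CPM (SD 0.17, the narrowest of the 69 genes), and its highest value came from LD post-induction 2, a library in which 62 of the 69 genes were below their mean. RPL7 was also narrow, between 176 and 324 CPM (SD 0.27).

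The acidic stalk recruits the elongation factors to the ribosome. RPLP1 was at 188, 189 and 174 CPM in LD baseline, 221, 171 and 114 in LD post-induction, 264, 224 and 126 in VHD baseline and 294, 149 and 151 in VHD post-induction, so that, unlike RPL13A, it was low in the 2 VHD libraries that stood apart. RPLP2, its partner, was highest in VHD post-induction 2 (534 CPM) and lowest in LD post-induction 3 (206 CPM). RPL12, at the base of the stalk, ranged from 14.9 to 64.4 CPM, with the lowest value again in LD post-induction 3.

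RPL5, which with RPL11 and the 5S rRNA forms the particle that binds MDM2, was at 516, 568 and 468 CPM in LD baseline, 643, 377 and 308 in LD post-induction, 742, 353 and 489 in VHD baseline and 499, 677 and 364 in VHD post-induction. Its 4 lowest libraries were the 4 with the lowest summed level, and no group stood apart from another.

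The 2 VHD libraries that stood apart split the ribosomal genes. In both, 36 of 69 genes were above their own mean (52.2%, against 33.6% of other genes) and 13 below it in both (18.8%, against 31.7%). A further 19 were above their mean only in VHD post-induction 2 and 1 only in VHD baseline 3. The largest positive deviations in VHD post-induction 2 were those of RPL13A (1.85 log2 units above its mean), RPL8 (1.84), RPL32 (1.77) and RPS19 (1.70), and the lowest was that of RPL38, -0.60. RPL38, a protein needed in mouse embryos to translate a set of Hox messengers, was at 39.3 CPM in VHD baseline 3 and 46.0 in VHD post-induction 2, while it reached 170 in VHD baseline 1 and 178 in LD post-induction 1.

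The 13 genes below their mean in both were RPL23A, RPL30, RPL38, RPL39, RPL7L1, RPLP1, RPS12, RPS24 (chromosome X), RPS27A (chromosome 8), RPS3A, RPS4X, RPS4Y2 and RPSA. They include both subunits, the stalk, the paralogs RPL7L1 and RPS4Y2, and both short second identifiers of RPS24 and RPS27A. All 10 ribosomal genes of chromosome 19, RPL13A, RPL18 and RPS19 among them, were above their mean in VHD post-induction 2, with a median of 1.32. The other genes of chromosome 19 were also on the high side there, with a median of 0.31 and 64.7% above their mean. On chromosome X, 1 of 4 ribosomal genes was above its mean in this library, with a median of -0.31.

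Short second identifiers and paralogs did not follow their main genes in a fixed proportion. The counts of the RPSA identifier on chromosome 12 were 45.3 to 56.2% of those of RPSA in 8 libraries and 19.7 to 24.4% in the 4 libraries with the lowest summed level. In CPM it was at 91.2, 74.3 and 64.1 in LD baseline, 125, 28.1 and 18.3 in LD post-induction, 110, 34.2 and 41.2 in VHD baseline and 94.8, 57.2 and 31.9 in VHD post-induction. The ratio therefore fell into 2 ranges with none between, and both ranges occurred in 3 of the 4 groups. Only differences of a ratio between libraries are read here, since identifiers differ in length.

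The RPS24 identifier on chromosome X split the libraries elsewhere. Its counts were 4.81% of those of RPS24 in VHD baseline 3, 6.49% in VHD post-induction 2, and 14.1 to 25.7% in the other 10 libraries. The RPS27A identifier on chromosome 8 did likewise, with 3.63 and 4.69% of the RPS27A counts in these libraries and 8.54 to 15.8% in the others. In both cases the main gene was not low there: RPS24 stood at 294 and 407 CPM in the 2 libraries, and its second identifier at 14.1 and 26.4 CPM.

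**Figure D3:**
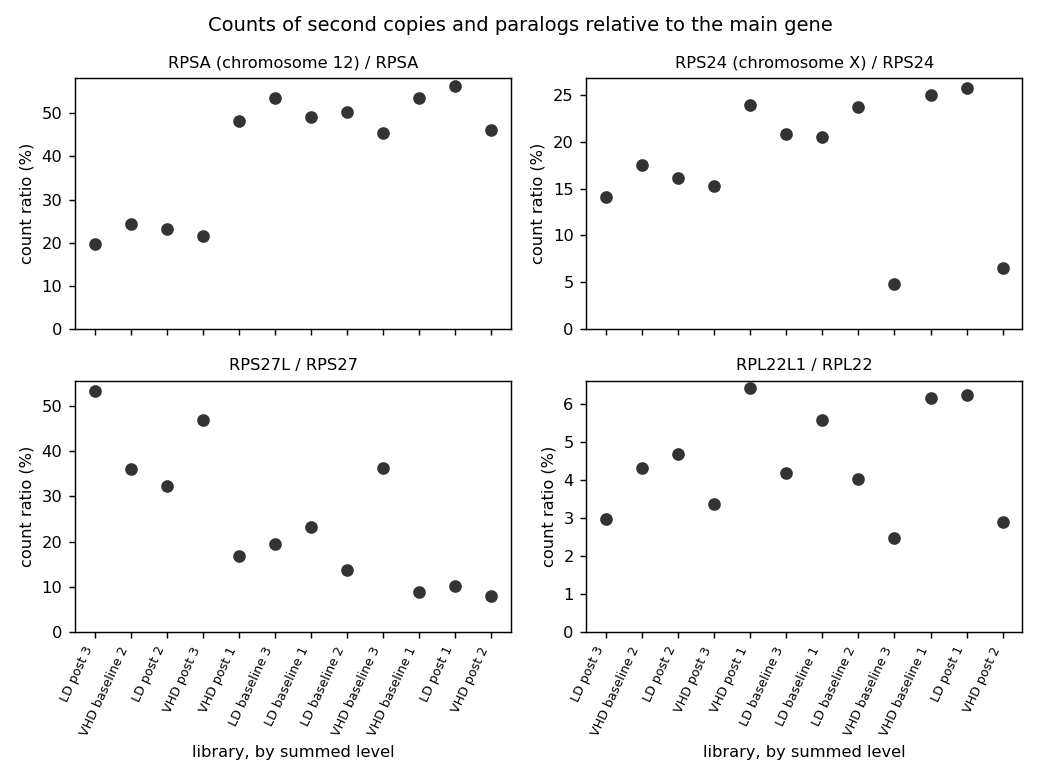
Counts of a second identifier or paralog in percent of the counts of its main gene (y axes) in each of the 12 libraries, ordered by the summed ribosomal level (x axes). The RPSA ratio is 19.7 to 24.4% in the 4 lowest libraries and 45.3 to 56.2% in the rest, and the RPS24 ratio is lowest in VHD baseline 3 (4.81%) and VHD post-induction 2 (6.49%).

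The paralogs differed among each other. RPS27L, a p53 target, was at 23.5, 21.1 and 23.2 CPM in LD baseline, 21.0, 26.7 and 27.3 in LD post-induction, 21.9, 24.2 and 46.5 in VHD baseline and 15.9, 25.6 and 33.7 in VHD post-induction. Its counts were 8.02 to 53.3% of those of RPS27, with 4 of the 5 highest ratios in the 4 libraries of lowest summed level. RPS27 itself ranged from 51.3 to 320 CPM. RPL22L1 was at 2.47 to 6.40% of the RPL22 counts, with the 2 lowest values in the VHD libraries that stood apart.

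RPL3L was near the limit of detection, with 0 to 18 counts per library. It was at 0.173, 0.380 and 0.287 CPM in LD baseline, 0.424, 0.970 and 1.25 in LD post-induction, 0, 0.800 and 0.592 in VHD baseline, and 0.414, 0.493 and 0.812 in VHD post-induction. All 3 LD post-induction values lay above all 3 of LD baseline, which rest on 1, 6 and 4 counts, and the VHD groups overlapped. RPL7L1, a nucleolar relative of RPL7, ranged from 1.87 to 6.16 CPM with its highest value in VHD baseline 2, where RPL7 had its lowest.

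RPS4 is encoded on both sex chromosomes. RPS4X was at 83.1, 81.0 and 54.5 CPM in LD baseline, 105, 42.4 and 36.0 in LD post-induction, 116, 49.98 and 28.9 in VHD baseline and 83.8, 41.8 and 40.5 in VHD post-induction. RPS4Y1, its Y-linked counterpart, was at 138 to 304 CPM and RPS4Y2 at 90.8 to 172 CPM, the latter with the second narrowest spread of the 69 genes (SD of log2 CPM 0.25). Relative to RPS4X, the counts of RPS4Y1 were 226 to 485% in 10 libraries but 849% in VHD baseline 3 and 661% in VHD post-induction 2.

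Which transcript of a gene took the most counts was not always the same. Of the 39 ribosomal genes with 2 or more transcripts in the table, 26 had the same leading transcript in all 12 libraries. The other 13 changed it between libraries, so sums per gene were used throughout.

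The comparison of VHD with LD at baseline asks whether livers differed before any ethanol. No ribosomal gene passed the threshold (edgeR quasi-likelihood test, adjusted p under 0.05 over 18373 genes), where 0.00544% of all tested genes did. None had an unadjusted p under 0.05 either, and DESeq2 called none. No ribosomal gene had all VHD libraries on one side of all LD libraries, beside 7.21% of all genes. The median log2 fold change of the 69 genes was 0.01 (36 positive, 33 negative), beside 0.07 for all genes. The smallest unadjusted p values belonged to RPS27L (log2 fold change 0.45 ± 0.36, SE), RPL24, a protein of the bridge between subunits (0.51 ± 0.49), RPS14, known from the 5q- syndrome (0.38 ± 0.38), RPL27 (0.31 ± 0.36) and RPL3L (0.72 ± 0.87), each with an adjusted p of 1.0. RPL24 was at 374, 388 and 424 CPM in LD baseline and at 378, 328 and 983 in VHD baseline, so VHD baseline 3 alone lay above the LD range; without it the fold change was -0.21.

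The response to induction in LD livers leaned downward without passing the test. Of the 69 genes, 58 had a negative and 11 a positive fold change, with a median of -0.12 beside 0.08 for all genes, of which 56.4% were positive. None was called, and the background of called genes was 0%; none had an unadjusted p under 0.05 and DESeq2 called none. RPS29, a small zinc-binding protein of the small subunit, had a log2 fold change of -0.55 ± 0.45 and RPL18 of -0.55 ± 0.48, with adjusted p of 0.926 and 0.93. RPL18 stood at 204, 192 and 163 CPM in LD baseline and at 231, 82.3 and 66.7 in LD post-induction, so animals 2 and 3 were below and animal 1 above the baseline range.

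RPL3L (1.52 ± 0.87, adjusted p = 0.867) was the sole ribosomal gene whose LD libraries did not overlap between the time points, 1 of 69 beside 11.7% of all tested genes. RPS2 (chromosome 6) had -0.55 ± 0.55 (adjusted p = 0.938). RPS21 had 0.74 ± 0.78 (adjusted p = 0.946), a mean carried by 42.8 CPM in LD post-induction 1, and -1.18 without that library. Leaving out LD post-induction 1 moved the median of the 69 genes from -0.12 to -0.82 and brought 17 of them (24.6%) to an unadjusted p under 0.05, beside 16.3% of all genes in that fit, with a smallest adjusted p of 0.209 (RPL18, -1.32 ± 0.42). Leaving out LD post-induction 3 moved the median to 0.09.

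In VHD livers 45 of the 69 fold changes were positive and 24 negative, with a median of 0.09 beside 0.03 for all genes. None was called in a background of 0%, none had an unadjusted p under 0.05, and DESeq2 called none. Both time points overlapped for every ribosomal gene, while 6.69% of all genes did not overlap. The smallest unadjusted p values were those of RPS27L (-0.30 ± 0.35), RPL7L1 (-0.36 ± 0.44), RPL27 (0.30 ± 0.36), RPL32 (0.47 ± 0.57) and RPL13A (0.50 ± 0.62), all with an adjusted p of 1.0. RPL32 was at 113, 84.1 and 254 CPM in VHD baseline and 88.0, 441 and 95.2 in VHD post-induction, each group with 1 high library from a different animal. Without VHD post-induction 2 the median of the 69 genes was -0.30, and RPL13A and RPL32 had -0.70 and -0.72. Without both libraries that stood apart it was -0.33.

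Over both classes, the mean of the 2 responses had a median of -0.01 (28 positive, 41 negative), beside 0.07 for all genes. Without both VHD libraries that stood apart, the median of the ribosomal genes was -0.24. No ribosomal gene was called, where 0.267% of all genes were, a share that rests on 49 genes and fell to 4 genes in a fit with a term for each animal. None had an unadjusted p under 0.05 and DESeq2 called none. RPL3L (0.89 ± 0.59, adjusted p = 0.764), RPS21 (0.68 ± 0.55, 0.822), RPL27 (0.27 ± 0.26, 0.859), RPL38 (-0.49 ± 0.48, 0.868) and RPL15, a large subunit protein (-0.31 ± 0.35, 0.897), had the smallest unadjusted p. No ribosomal gene had all 6 libraries of one time point above all 6 of the other, beside 0.991% of all genes.

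The difference of the responses, VHD minus LD, was positive for 57 of the 69 genes, with a median of 0.20 beside -0.05 for all genes. None was called in a background of 0%, none had an unadjusted p under 0.05 and DESeq2 called none. RPS29 (0.78 ± 0.64), RPL17, at the peptide tunnel (0.71 ± 0.65), RPL3L (-1.26 ± 1.18), RPS25 (0.78 ± 0.76) and RPS2 (chromosome 6; 0.79 ± 0.77) had the smallest unadjusted p and an adjusted p of 1.0. Without VHD post-induction 2 the median was -0.12, and without both VHD libraries that stood apart it was -0.11. The 5 comparisons share libraries, so their medians are not independent of each other. Typical SE were 0.50 in the first 3 comparisons, 0.36 for the mean and 0.71 for the difference on the log2 scale, and a p that misses the threshold does not show that levels were equal.

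**Figure D4:**
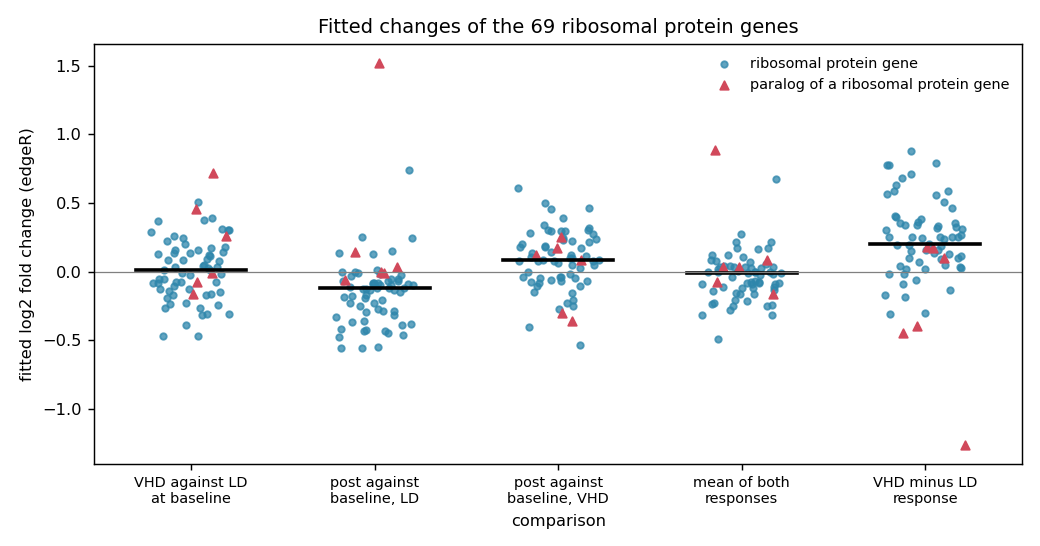
Fitted log2 fold changes (y axis) of the 69 ribosomal protein genes in the 5 comparisons (x axis), with paralogs as triangles and the median of the 69 genes as a bar. The bars lie at 0.01, -0.12, 0.09, -0.01 and 0.20, and the highest point in the LD response is RPL3L at 1.52.

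Other genes of translation were set beside the ribosomal ones by library. The 46 mitochondrial ribosomal protein genes, which serve a separate ribosome, summed to 583 to 783 CPM in the 4 libraries with the lowest cytosolic ribosomal level and to 838 to 1535 in the other 8. The same 4 libraries were also the lowest for elongation and release factors (3501 to 3913 against 4000 to 5111 CPM), initiation factors (2380 to 2659 against 2788 to 3866 CPM) and other 5′ TOP messengers (6836 to 8517 against 8936 to 11244 CPM). These are sums, in which abundant genes weigh most. By median deviation, of these lists only elongation and release factors were lowest in those 4 libraries. VHD baseline 3 lay below VHD baseline 2 for mitochondrial (-0.29 against -0.25), initiation (-0.21 against -0.07) and other 5′ TOP genes (-0.51 against -0.21). At the high end the lists parted from the ribosomal level. VHD post-induction 2 had the highest ribosomal sum (25346 CPM). Yet it was the lowest of the other 8 for elongation and release factors (4000 CPM) and initiation factors (2788 CPM). Its initiation median deviation (-0.23) was also below that of VHD baseline 2. The 5′ TOP list shares genes such as EEF1A1 and EIF3E with the other lists and holds RACK1 and FAU, so it is not separate. Hepatocyte markers summed to 133445 to 182012 CPM in the 4 lowest ribosomal libraries and to 155081 to 251654 in the other 8. The overlap comes from the 2 VHD libraries that stood apart, at 155081 and 159020 CPM. Without them the 4 libraries were also the 4 lowest for hepatocyte markers, with 211609 to 251654 CPM in the other 6. The part of cell composition in the ribosomal level was not tested.

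**Figure D5:**
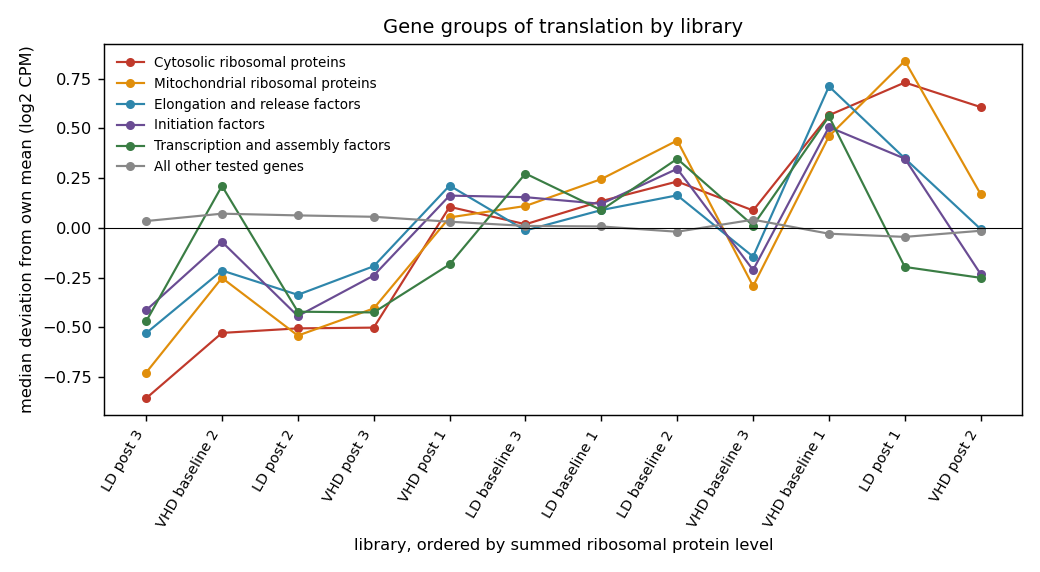
Median deviation of each gene group from its genes' own means (log2 CPM, y axis) in the 12 libraries, ordered by summed ribosomal level (x axis), with 1 line per group. Cytosolic ribosomal genes run from -0.86 in LD post-induction 3 to 0.73 in LD post-induction 1. All other tested genes stay between -0.05 and 0.07, a range that the TMM scaling itself keeps small.

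No member of the elongation list (11 of 13 tested), the initiation list (34 of 36), the other 5′ TOP messengers (16 of 18), the mTOR and TOP control list (16 of 24) or the stress kinase list (15 of 17) was called in the mean response by edgeR. Their medians were -0.09, -0.18, -0.06, 0.26 and 0.00, beside 0.07 for all genes. DESeq2 called RPTOR of the mTOR list (adjusted p = 0.0406) and MKNK2 and TRIB3 of the stress kinase list (0.031 and 0.0485), beside 2.18% of the genes it gave an adjusted p. In edgeR RPTOR, the scaffold of mTOR complex 1, had 1.38 ± 0.41 (adjusted p = 0.278). It was above its baseline value in 6 of 6 animals, as were 2.67% of all genes, but only from 26.2 to 28.4 CPM in VHD animal 2. EIF4A1, the helicase that opens the 5′ end of messengers, had -0.91 ± 0.28 (adjusted p = 0.312). It was below its baseline value in 5 of 6 animals, and 9.34% of all genes were likewise higher in exactly 1. MKNK2, a kinase of the initiation factor eIF4E, was higher in 6 of 6 (0.89 ± 0.24, adjusted p = 0.219). The 3 tested genes that carry a ribosomal protein outside the symbol rule, RACK1, RPL36AL and FAU, had -0.13, -0.09 and 0.05.

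The 30 genes of ribosome transcription and assembly had a negative median log2 change in all 6 animals (-0.17 to -0.77). In the 4 animals with a lower ribosomal median both sets had a negative one. In LD animal 1 (-0.17) and VHD animal 2 (-0.44) the ribosomal median was positive; the difference between the sets was not tested. In the mean response 23 were negative and 7 positive, with a median of -0.57, and 2 of 30 fell, beside 0.267% of all genes called: MYC, the transcription factor that drives ribosome production, and NIFK, a nucleolar factor of pre-rRNA processing. MYC went from 21.7 to 123 CPM at baseline to 4.29 to 14.8 post-induction (-2.91 ± 0.44, edgeR adjusted p = 0.0246), and NIFK from 18.5 to 34.7 to between 8.34 and 12.8 CPM (-1.42 ± 0.21, adjusted p = 0.0246). For neither did the time points overlap, beside 0.991% of all genes. With a term for each animal the adjusted p was 0.106 for MYC and 0.0893 for NIFK, and DESeq2 called 6 of the 30, beside 2.18% of the genes it gave an adjusted p, adding RRN3, LTV1, NOP56 and NOP58, all lower. RRN3, which brings RNA polymerase I to ribosomal DNA, was lower in 6 of 6 animals, as were 3.74% of all genes (-0.90 ± 0.20, edgeR adjusted p = 0.114). Without the 2 VHD libraries that stood apart, NIFK alone was called (adjusted p = 0.0374, against 0.0621 for MYC) and the median of the 30 was -0.62.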

How the data were processed

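The authors deposited expected counts per Ensembl transcript from 12 liver libraries. Per the labels' protocols, libraries were made from 500 ng RNA (RIN over 8.5) with the NEXTFLEX Combo-Seq kit, and reads were 76 bases long. The submitters' processing notes name Partek, Bowtie, BWA and Mmul_8.0.1, with versions, annotation release and strand setting not given in the sources used here. The deposited normalized signal values, which equal the raw count times 1 constant per library to within rounding, were used in an alternative only. A printed start may be off by 1 base, because the base from which the table counts is unknown.

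Counts were summed per gene identifier and rounded. After filterByExpr by group, 18373 genes were fitted with 4 group means over all 12 libraries in edgeR 4.0.16 (R 4.3.3; TMM, robust quasi-likelihood F test), with Benjamini-Hochberg adjustment over all genes and a threshold of 0.05. The SE is the log2 fold change divided by the square root of F. Log2 CPM used a prior count of 2. The fit was tried on simulated counts, drawn independently for each gene with a common dispersion and without animal pairs or a shared axis between libraries. That run checks the code and does not show how the fit behaves on these data. Alternatives used DESeq2 1.42.0 and limma 3.58.1, other factors, filters and designs, and each library left out. Symbols came from the gene name table, which left 8522 of the 23993 identifiers without one.

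Members, gene lists and tests were chosen with earlier results of these data known. Named members are those with the 5 smallest unadjusted p per comparison, the 5 highest mean CPM, the 3 widest and 3 narrowest spreads, the paralogs, stalk and 5S particle genes, and a panel of RPS6, RPS19, RPL3, RPL13A, RPSA and RPS4X; for each other list, called genes or up to 3 with the smallest unadjusted p. RPS7, RPL31, LTV1, NOP56, NOP58 and the chromosome groups were chosen after their values were seen. Libraries of the same title number within a class come from the same animal. Deviations of such pairs from their group means correlated at -0.35 to 0.41 over all genes and at -0.71 to 0.66 over the ribosomal genes. Some results for single genes are not reported here.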

Additional observations from a re-analysis of the deposited data

How the results depend on the processing

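No ribosomal protein gene was called in any of 27 alternative settings, read in 133 pairs of setting and comparison. The medians over the 69 genes moved by less than the SD between animals or libraries. That SD, 0.395 to 0.933, is wide beside the medians themselves, so this does not show that they were stable. The sign of the medians changed in 11 of 27 alternatives for VHD against LD at baseline, 3 of 27 for LD, 3 of 27 for VHD, 7 of 26 for the mean and 4 of 26 for the difference. Leaving out 1 library in turn gave medians of -0.26 to 0.22, -0.82 to 0.09, -0.30 to 0.44, -0.36 to 0.14 and -0.12 to 0.92 in that order. With a replicate block (the animal, or for VHD against LD, which share no animal, the title number) the medians were -0.01, -0.36, 0.05, -0.15 and 0.39, and it changed no call of a ribosomal gene.

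Of 659 alternative values of single named ribosomal genes, 23 changed sign, none of them past the threshold. Leaving out 1 library in turn gave, in VHD against LD at baseline, -0.0261 to 0.644 for RPS27L, -0.212 to 0.773 for RPL24 and -0.0311 to 0.471 for RPL27, each lowest without VHD baseline 3. In LD it gave -1.18 to 1.22 for RPS21, lowest without LD post-induction 1. In VHD it gave -0.592 to 0.107 for RPS27L, -0.662 to 0.0785 for RPL7L1, -0.0808 to 0.572 for RPL27, -0.72 to 1.08 for RPL32 and -0.701 to 1.1 for RPL13A, the last 3 lowest without VHD post-induction 2. In the mean it gave -0.286 to 0.912 for RPS21 and -1.08 to 0.0435 for RPL38, and in the difference -0.00372 to 1.09 for RPL17 and -0.181 to 1.2 for RPS25. Without both VHD libraries that stood apart, RPL24 had -0.161 at baseline and RPS27L, RPL32 and RPL13A had 0.106, -0.108 and -0.0867 in VHD. RPS21 in LD had -0.152 with the replicate block, -0.015 with limma voom, and -0.0152 and -0.0775 with limma-trend on normalized values plus 1 and plus 0.1. With a term for the first component of the other genes, RPL38 had 0.0407 and RPL15 0.00272 in the mean. The cause was not tested.

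The summed level in LD baseline 2 was 13887 CPM with upper-quartile factors, a shift beyond the SD of its group. With no factor, an alternative added after seeing the data, it was 13691 in that library and 11738 in LD baseline 3, both beyond the SD. The other 45 of 48 alternative levels stayed within theirs. Outside LD baseline the SD was 4946 CPM or more, so this rule could hardly be missed there. VHD baseline 2 went from 8984 to 10989 CPM with no factor and still counted as within. With no factor the 4 lowest libraries reached up to 11228 CPM, close to LD baseline 3. Of 25 alternatives each, MYC missed the threshold in 9 (fold changes -3.18 to -2.51, adjusted p 1.76e-08 to 0.106) and NIFK in 7 (-1.54 to -1.33, 1.89e-07 to 0.0936). Over all genes, the mean response had 49 calls by edgeR, 269 by DESeq2, 4 with the replicate block and 0 without LD post-induction 2 or VHD post-induction 1. Fits to the compared groups alone give no value for the mean and the difference. The number of libraries, 3 per group, limits the precision.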
